A study of Mus musculus with 8 samples.

Results

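Chemokines are small secreted proteins that steer migrating cells, and they act through receptors of the G protein-coupled family on the cells that respond. This account covers the chemokine and chemokine receptor genes of the mouse mandibular arch. Members were every gene whose symbol in the array annotation is Ccl, Cxcl, Ccr or Cxcr with a number and at most a closing letter, together with Cx3cl1, Cx3cr1, Xcl1, Xcr1 and the atypical receptors Ackr1 to Ackr4. The rule found 53 genes among the 18194 measured, 33 of them ligands and 20 receptors. Pf4 and Ppbp, platelet chemokines that carry other symbols, were not members, nor was the receptor-like gene Ccr1l1. Each gene was read from its brightest probe set, by the mean of the 8 arrays, and 20 members had more than 1 probe set. Probe sets annotated to several genes, such as those for the Ccl19, Ccl21 and Ccl27 copies, were not named, so Ccl27a was read from a single remaining probe set and Ccl19 and Ccl21a were not analysed here.

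RNA came from the mandibular arch, the embryonic tissue that forms the lower jaw, at embryonic day 11.5 from C57BL/6J mice of undetermined sex. The 4 controls were Alk5 fl/fl and the 4 mutants were Wnt1-Cre;Alk5 fl/fl, so both groups carried the floxed alleles. The labels name no Cre in the controls, so the driver and the deletion cannot be told apart. Alk5, also called Tgfbr1, is a receptor that TGF-beta ligands signal through, and Wnt1-Cre removes it in the neural crest lineage, which gives most of the arch mesenchyme, while mesodermal muscle precursors, endothelium, blood and epithelium keep it. The study asked how loss of the receptor in crest cells affects the arch that they share with muscle precursors.

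Values are log2 expression units, in which a difference of 1 is a doubling. Array medians ran from 6.28 to 6.42. The array of mutant replicate 3 differed from the rest, with an SD over all probe sets of 2.42 against 2.52 to 2.56 on the other arrays, and dim genes tended to read high on it. Among the 9097 genes at or below the median level, 56.8% had their highest mutant value on that array. All 8 arch mesenchyme markers read above the median of all genes, with list means of 11.56 to 11.72 in controls and 11.45 to 11.59 in mutants. The brightest Tgfbr1 probe set read 12.79 ± 0.0844 (SD, n = 4) in controls against 12.98 ± 0.0115 for the mutants; whether it lies in the floxed part is not known here, so it does not check the deletion. The labels do not say that the samples of a group came from separate embryos or litters, so the p-values cover the spread among these 8 samples, which may be technical.

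Several members work in known pairs. CCL3, CCL6 and CCL9 attract myeloid cells through the receptor CCR1. CXCL12 guides migrating neural crest cells, muscle precursors and blood cells through CXCR4, and the atypical receptor ACKR3 takes up CXCL12 without signalling through G proteins, which shapes the gradient. In the embryo, resident macrophages arrive before most other leukocytes, and they both make and sense chemokines.

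Of the 53 members, 4 rose and 3 fell in the mutants at an adjusted p under 0.05 (limma, Benjamini-Hochberg over all genes). The rises were the ligands Ccl9, Ccl3 and Ccl6 and the receptor Ccr1, by 1.45-fold to 1.78-fold. The falls were the ligand Cxcl14, by 2.59-fold, the ligand Cxcl5 and the atypical receptor Ackr3. Over all 18194 genes 2.14% passed, 0.835% as rises and 1.31% as falls, beside 13.2% of the members. Groups did not overlap for the same 7 members, and for 10.3% of all genes, 3.27% with mutants higher and 7.02% with mutants lower.

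**Figure D1:**
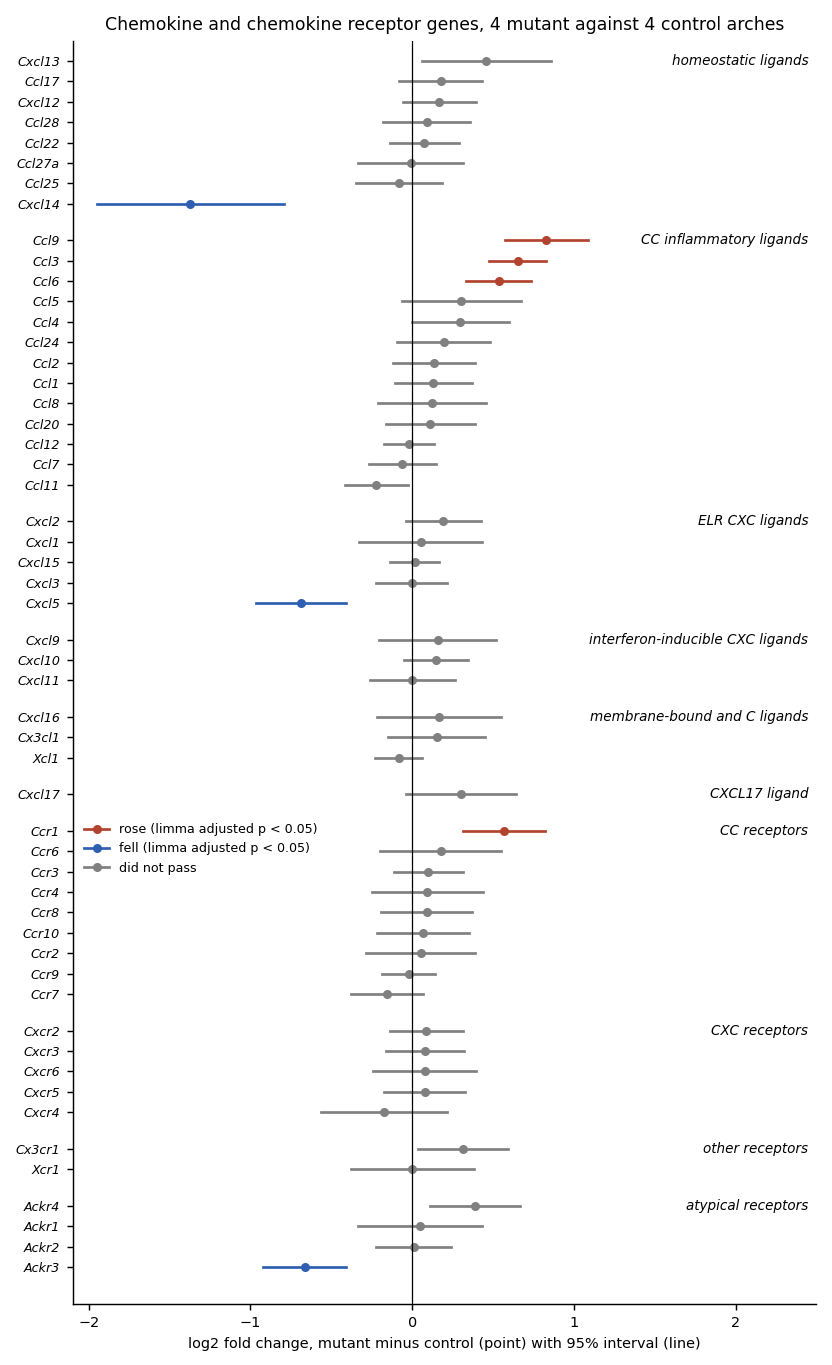
Each row is a member, grouped by role, with its log2 fold change (mutant minus control) as a point and the 95% interval of the limma fit as a line. Red marks the 4 genes that rose, blue the 3 that fell and grey the 46 that did not pass; Cxcl14 lies farthest from 0, at -1.37.

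Ccl9, Ccl6 and Ccl3 lie close together on mouse chromosome 11, in the order Ccl5, Ccl9, Ccl6, Ccl3, Ccl4 among the measured protein-coding genes of the RefSeq table (GRCm38.p6). The promoter windows of the 4 genes that rose, from 250 bases before to 50 after the RefSeq start, are shown because these genes all rose. Whether they varied together across arrays was not tested. They span chr11:83578587-83578886 for Ccl9, chr11:83593038-83593337 for Ccl6, chr11:83649329-83649628 for Ccl3 and chr9:123968643-123968942 for Ccr1 in GRCm38.p6. All 4 lie on the minus strand and are written 5′ to 3′ along the gene, with capitals marking GGAAGT and TATAAA on either strand.
Ccl9: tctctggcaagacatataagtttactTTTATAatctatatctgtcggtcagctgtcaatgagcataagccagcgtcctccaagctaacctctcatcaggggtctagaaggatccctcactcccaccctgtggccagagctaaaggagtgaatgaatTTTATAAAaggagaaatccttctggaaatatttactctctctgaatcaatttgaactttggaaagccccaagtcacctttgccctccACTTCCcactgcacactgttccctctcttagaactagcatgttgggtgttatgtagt
Ccl6: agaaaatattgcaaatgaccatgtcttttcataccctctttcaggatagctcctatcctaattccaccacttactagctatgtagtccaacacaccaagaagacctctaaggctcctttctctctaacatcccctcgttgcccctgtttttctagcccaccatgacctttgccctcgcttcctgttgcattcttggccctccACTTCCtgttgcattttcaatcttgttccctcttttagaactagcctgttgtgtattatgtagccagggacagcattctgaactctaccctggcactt
Ccl3: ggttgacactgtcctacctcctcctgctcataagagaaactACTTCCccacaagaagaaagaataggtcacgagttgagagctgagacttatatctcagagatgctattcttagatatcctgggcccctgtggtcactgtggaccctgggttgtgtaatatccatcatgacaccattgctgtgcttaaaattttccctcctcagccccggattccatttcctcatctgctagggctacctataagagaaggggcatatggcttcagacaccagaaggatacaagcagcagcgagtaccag
Ccr1: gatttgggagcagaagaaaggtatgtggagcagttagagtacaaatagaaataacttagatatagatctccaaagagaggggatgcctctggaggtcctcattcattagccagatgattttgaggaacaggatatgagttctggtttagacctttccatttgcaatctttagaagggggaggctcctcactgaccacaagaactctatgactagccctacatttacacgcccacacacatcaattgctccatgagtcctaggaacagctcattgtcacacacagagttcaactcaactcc
GGAAGT, letters found at the core of ETS-family sites, occurred once (read as ACTTCC) in the windows of Ccl9, Ccl6 and Ccl3 and not in that of Ccr1. The same letters occur on either strand in 23.8% of 32851 RefSeq promoter windows of this length and in 19 of the 40 members with a window. TATAAA, the letters of the TATA box, occurred in the Ccl9 window alone of these 4, with 3 matches of which 2 overlap. These matches begin at -224, -94 and -92 from the RefSeq start. The letters occur in 13.6% of all windows and in 12 of the 40 members. TGANTCA, the letters of the AP-1 site, was found in the Ccl9 window (7.81% of all, 6 of the 40 members). CAGACA, which holds Smad-type letters, was found in the Ccl3 window (21.0% of all, 10 of the 40 members). Ccl9 and Ccl6 share the run GCCCTCCACTTCC, 13 bases that include the ACTTCC, whereas no other pair among the 6 matched genes that passed shares more than 9 bases. These are matches of letters only. The motifs were chosen with the expression results known.

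The CC inflammatory ligands held all of the ligands that rose. There were 13 on the arrays, of which 3 rose and the other 10 missed the threshold. Their median log2 fold change was 0.13, against -0.01 for all genes. All 13 read at or below the median level of all genes, so -0.01 is not matched for level. Without mutant replicate 3, Ccl2, the gene at that group median, differed by 0.02, and Ccl8 and Ccl20 by -0.03 and -0.01. Ccl3, also called MIP-1 alpha, attracts monocytes and macrophages. It read 4.88, 4.75, 4.95 and 4.84 in controls 1 to 4 and 5.39, 5.49, 5.64 and 5.51 in mutants 1 to 4. Every mutant lay above every control, and the spread within each group was small beside the gap. The log2 fold change was 0.65 ± 0.0781 (SE), a 1.57-fold rise (limma adjusted p = 0.00462). An exact permutation test gave p = 0.0286 two-sided, the smallest that 70 relabelings allow, and the same value for each of the other 6 genes that passed. Any gene without overlap between the groups gets this value, as 10.3% of all genes did, so it only restates the lack of overlap. The Ccl3 values lie below the lower quartile of all genes (5.70), where this kind of array summary compresses differences.

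Ccl9, a CCR1 ligand that myeloid cells and osteoclasts make, read 5.65, 5.68, 5.71 and 5.58 in controls and 6.74, 6.59, 6.44 and 6.17 in mutants. The groups did not overlap, and the mutants spread more widely (SD 0.245) than the controls (SD 0.0549, n = 4 each). The log2 fold change was 0.83 ± 0.115 (SE), or 1.78-fold (limma adjusted p = 0.00855). A second, dimmer probe set moved the same way, from a mean of 4.56 to 5.27, again without overlap. Tested over all 34958 probe sets, it missed the threshold (limma adjusted p = 0.0534). Ccl6, a macrophage-attracting ligand close in sequence to Ccl9, read 5.81, 5.56, 5.83 and 5.85 in controls and 6.43, 6.27, 6.17 and 6.31 in mutants. Its log2 fold change was 0.54 ± 0.0897 (SE), or 1.45-fold (limma adjusted p = 0.0196). The lowest mutant stood above the highest control here too. The second Ccl6 probe set differed by 0.35 and missed the threshold over all probe sets (limma adjusted p = 0.0604). Whether RNA of one of these related genes also bound the probes of another was not tested.

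Ccl3 and Ccl9 passed in all of the alternatives that measured them, 16 and 17, with adjusted p up to 0.0259 and 0.0401. Ccl6 missed the threshold when any of controls 1 to 3 or mutants 1 and 4 was left out (limma adjusted p at most 0.0744).

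The flanking genes of the same stretch, Ccl5 and Ccl4, which encode further ligands of monocytes and lymphocytes, did not pass (0.30, adjusted p = 0.481, and 0.30, adjusted p = 0.377). Ccl4 read 7.53 in mutant replicate 3, its highest array, and had a mutant mean of 7.12 against 6.83 in controls; without that array the difference was 0.16. In the other CC stretch of chromosome 11, from Ccl2 to Ccl1, 0 of 6 genes passed and log2 fold changes ran from -0.22 (the eosinophil attractant Ccl11) to 0.13 (the monocyte attractant Ccl2). Ccl11 had an adjusted p of 0.296, so the difference did not hold after correction. The remaining 2 CC inflammatory ligands, Ccl20 (0.11) and Ccl24 (0.20), did not pass either.

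**Figure D2:**
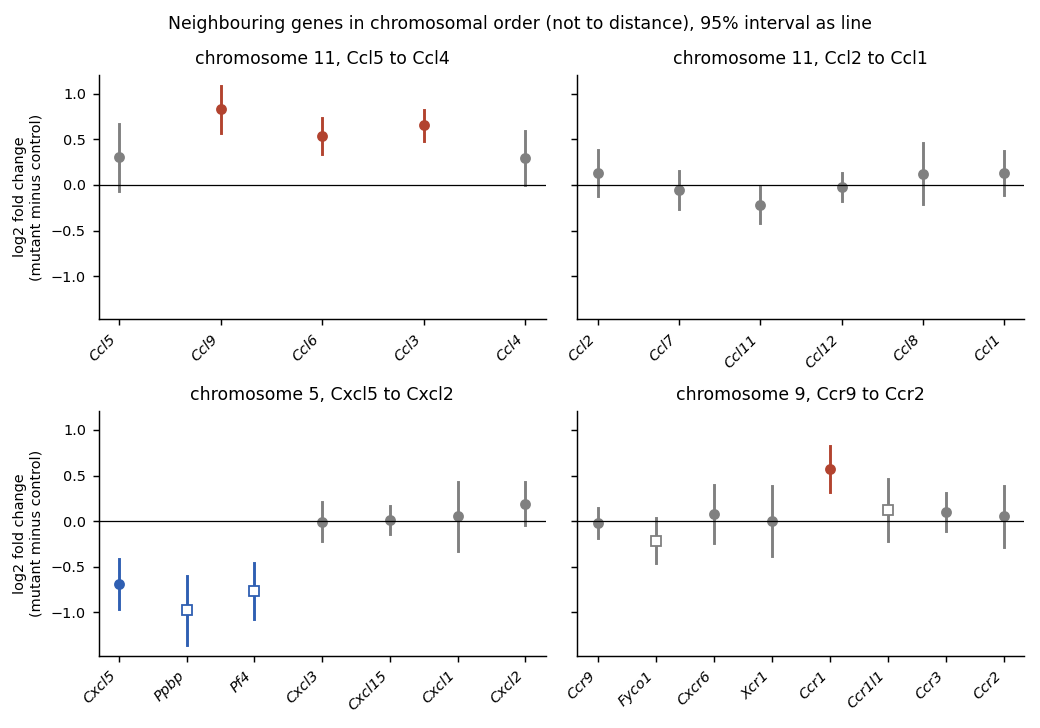
Log2 fold change (mutant minus control) with its 95% interval for genes in their order along 4 stretches of chromosome; open squares are neighbours that are not members. Ccl9, Ccl6 and Ccl3 rose side by side between Ccl5 and Ccl4, and Cxcl5, Ppbp and Pf4 fell side by side on chromosome 5, next to 4 CXC ligands that did not pass.

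Among receptors, Ccr1 was the member that rose. It is the shared receptor of CCL3, CCL6 and CCL9 on myeloid cells. Ccr1 read 6.16, 6.23, 6.43 and 6.46 in controls and 7.18, 6.83, 6.75 and 6.81 in mutants, with no overlap. Its log2 fold change was 0.57 ± 0.113 (SE), or 1.48-fold (limma adjusted p = 0.0372). The second Ccr1 probe set was dim (3.30 in controls, 3.37 in mutants) and differed by 0.07. Tested over all 34958 probe sets, the brighter had an adjusted p of 0.0504. Over the mean of both probe sets the change was 0.32 and did not pass (adjusted p = 0.138). Ccr1 also missed the threshold when any of controls 1 to 3 or mutants 1, 2 and 4 was left out, and after centring each array on its median, with adjusted p up to 0.138.

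The other 8 CC receptors did not pass, and their log2 fold changes lay between -0.15 (Ccr7, the lymph node homing receptor) and 0.18 (Ccr6). Ccr2, the monocyte receptor for CCL2, differed by 0.05, with a 95% interval of -0.28 to 0.39. On chromosome 9, where Ccr1 lies beside other receptor genes, Xcr1, Ccr1l1, Ccr3 and Ccr2 differed by 0.00, 0.12, 0.10 and 0.05, none past the threshold.

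Cx3cr1, the fractalkine receptor of macrophages and microglia, read 7.28, 7.01, 7.23 and 7.26 in controls and 7.73, 7.64, 7.17 and 7.51 in mutants. Mutant replicate 3 lay among the controls and the other 3 mutants above them. The difference of 0.32 ± 0.123 (SE) did not pass (limma adjusted p = 0.297). Without mutant replicate 3 it was 0.43 and passed (adjusted p = 0.0357), and with array weights it was 0.42 (adjusted p = 0.0122); over all alternatives the adjusted p ran from 0.0122 to 0.575. Its ligand Cx3cl1 differed by 0.15 (adjusted p = 0.691).

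Myeloid markers were higher on the same arrays. Among 18 such genes 10 rose (13 without mutant replicate 3) and the other 8 missed the threshold, where 0.835% of all genes rose. The list was chosen with earlier results of these data known. The median change was 0.72, and the mean over the list ran from 6.63 to 6.71 in controls and from 7.23 to 7.58 in mutants. The 10 included C1qb, C1qc and C1qa, complement genes of tissue macrophages, and Adgre1, a surface marker of macrophages, at log2 fold changes from 1.21 (Adgre1) to 1.54 (C1qb). Cd163 and Itgam read 3.61 and 4.10 in controls, below the lower quartile of all genes, and differed by -0.11 and -0.10. Fcgr1, Cd14 and Spi1 read 6.57, 6.42 and 6.16 in controls, above that quartile, and differed by 0.13, 0.11 and 0.10. Their limma adjusted p were 0.666, 0.712 and 0.751. The rest of those that missed, Fcgr3, Lyz2 and Mrc1, differed by 0.75, 0.58 and 0.35. The part of this shift in the rises of Ccl3, Ccl6, Ccl9 and Ccr1 was not tested, and in whole-tissue RNA more cells of a type and more RNA per cell cannot be told apart. None of 6 T and NK cell markers, 3 B cell markers and 5 mast cell markers passed in limma (smallest adjusted p 0.763, 0.692 and 0.655), and 0 of these had an unadjusted p under 0.05.

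**Figure D3:**
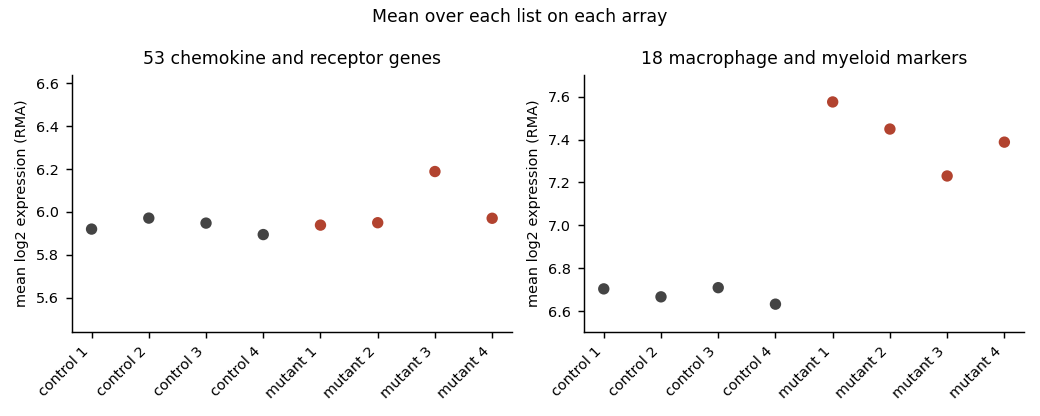
Mean log2 expression on each array over the 53 chemokine and receptor genes (left) and over the 18 macrophage and myeloid markers (right), controls in grey and mutants in red, on axes of equal span. The marker means of the 4 mutants all lie above those of the controls, whereas the member means overlap except for mutant replicate 3 at 6.19.

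How many members read above 0 depended on mutant replicate 3. Over all arrays 40 of 53 had a log2 fold change above 0, against 48.0% of all genes, and the median was 0.09. Of genes above the median level 33.3% were above 0, so dimmer genes lay above 0 more often. As 50 members read at or below that level, the shares of all genes given here are not matched to them. Mutant replicate 3 held the highest mutant value for 35 members. Without it 28 of 53 members were above 0, beside 48.4% of all genes, and the median fell to 0.00. With array weights 24 members were above 0. Leaving mutant replicate 3 out changed the sign of 18 members, among them Ccr2, Ackr1, Ackr2 and Xcr1, and none of the 18 had passed; their differences then ran from -0.18 to 0.07. The member means of the arrays other than mutant replicate 3 ran from 5.89 to 5.97 in both groups together.

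Ackr3, the atypical receptor that clears CXCL12 and CXCL11, fell. It read 11.83, 11.87, 11.86 and 11.48 in controls and 11.16, 11.30, 10.95 and 10.98 in mutants. Control replicate 4 was the lowest control but still lay above every mutant. The log2 fold change was -0.66 ± 0.114 (SE), a 1.58-fold decrease (limma adjusted p = 0.0218). The gene was well within the bright part of the arrays, above the upper quartile of all genes (9.74). Omitting any of controls 1 to 3 or mutants 1 and 4 ended the call for Ackr3 (limma adjusted p at most 0.0916). Its single probe set has a suffix of the array design that marks possible binding of related transcripts.

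Cxcl12, the ligand that Ackr3 and Cxcr4 share, read 11.07, 10.79, 10.68 and 10.87 in controls and 11.07, 11.17, 10.88 and 10.97 in mutants. The groups overlapped. The difference was 0.17 (limma adjusted p = 0.535; 95% interval -0.06 to 0.39), and the other probe sets differed by 0.16 and -0.06. Cxcr4, its signalling receptor, read 7.15, 7.15, 7.19 and 7.10 in controls and 7.31, 7.34, 6.58 and 6.65 in mutants. Mutants 1 and 2 lay above all controls and mutants 3 and 4 below them, so the mutant SD was 0.411 against 0.0371. The mean difference of -0.18 did not pass (adjusted p = 0.725), with a 95% interval of -0.57 to 0.21. Whether the change of Ackr3 differed from that of Cxcl12 or Cxcr4 was not tested.

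The other 3 atypical receptors, which bind chemokines without G protein signalling, did not pass. Ackr4, a scavenger of CCL19, CCL21 and CCL25, differed by 0.39 ± 0.125 (SE, adjusted p = 0.19) on its brightest probe set and by 0.00 and -0.04 on the others. Ackr1, the red cell and venule receptor, differed by 0.05 and Ackr2, a scavenger of inflammatory CC ligands, by 0.01.

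**Figure D4:**
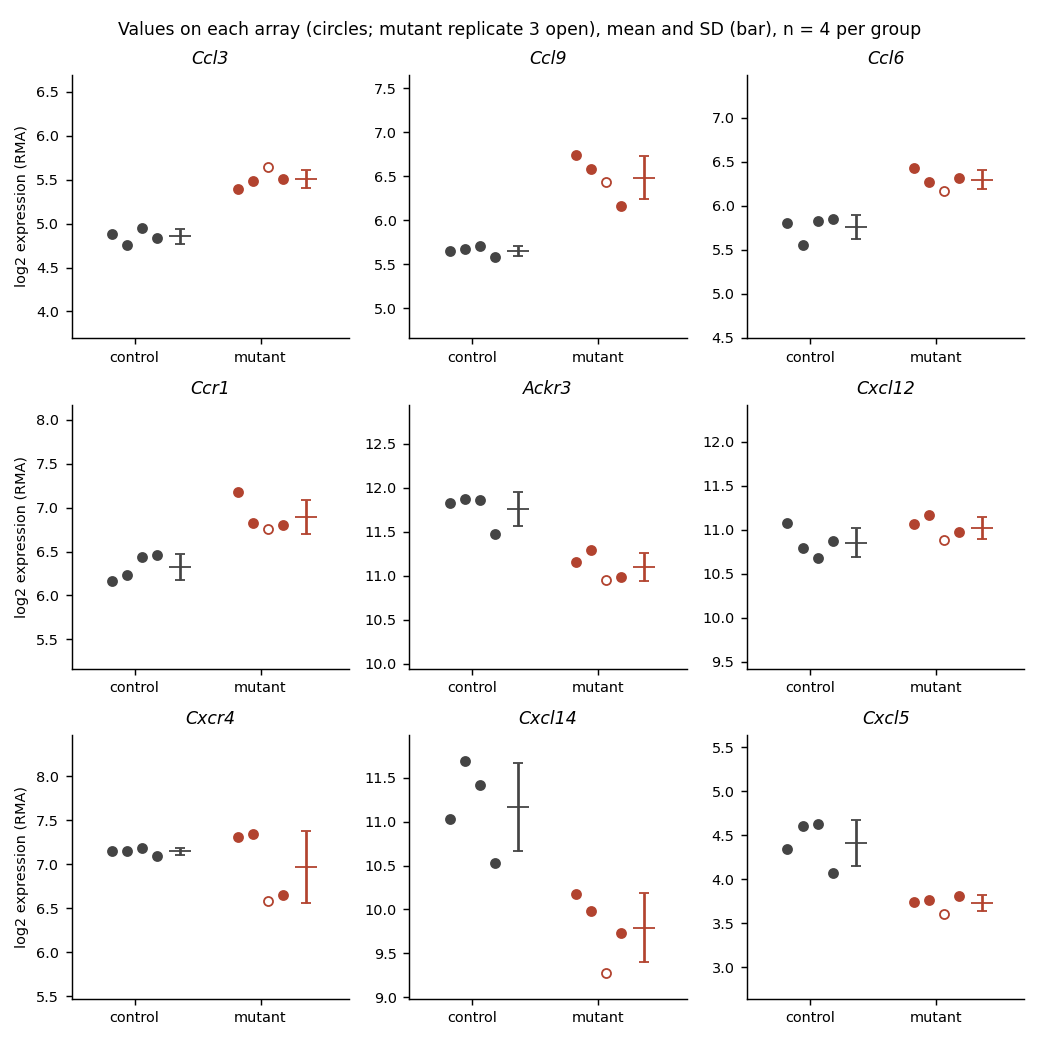
Log2 expression on each array for the 7 members that passed and for Cxcl12 and Cxcr4, with group means and SD (n = 4); every panel spans 3 log2 units and mutant replicate 3 is drawn open. Groups are separate for all but Cxcl12 and Cxcr4, and the Cxcr4 mutants lie above and below the controls.

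Cxcl14 had the largest change of any member. It is a homeostatic chemokine made by epithelia and some mesenchyme, and it attracts monocyte-lineage cells. Its brightest probe set read 11.03, 11.69, 11.41 and 10.53 in controls and 10.18, 9.99, 9.28 and 9.73 in mutants. All mutants were lower than all controls, with control replicate 4 and mutant replicate 1 nearest each other. The log2 fold change was -1.37 ± 0.259 (SE), a 2.59-fold decrease (limma adjusted p = 0.0305). A second probe set went from 8.67 ± 0.41 to 7.53 ± 0.224 (SD, n = 4), also without overlap. Omitting any of controls 1 to 3 or mutant 4 ended the call for Cxcl14 (limma adjusted p at most 0.115). Without mutant replicate 3, its lowest array, the change was -1.20 and passed.

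Epithelial markers, measured beside Cxcl14 because epithelia are a known source, had 0 of 7 past the limma threshold, 1 at an unadjusted p under 0.05 (13.5% of all genes were), 6 of 7 below 0 and a median of -0.23, or -0.07 without mutant replicate 3. The 1 was Krt14, a keratin of basal epithelium, which is described because of its per-array values. Krt14 read 9.87, 10.80, 10.37 and 9.28 in controls and 9.68, 9.41, 8.83 and 9.14 in mutants, a difference of -0.81 (limma adjusted p = 0.267). Within each group the arrays stood in the same order for Krt14 as for Cxcl14. None of the other epithelial markers kept that order in both groups, and Krt5 kept it in controls only. Krt8, for one, read 9.56, 9.69, 9.76 and 9.99 in controls and 9.86, 9.78, 8.99 and 10.06 in mutants. Among arch mesenchyme markers, Prrx1 kept the Cxcl14 order in controls only, and Dlx5 and Barx1 in mutants only. How many of all genes keep this order was not counted. The epithelial list mean ran from 9.84 to 10.21 in controls and from 9.33 to 10.03 in mutants, so the groups overlapped. Arch mesenchyme, which also expresses Cxcl14 and Ackr3, had 6 of 8 markers below 0 and 2 above, with a median of -0.23. These 8 and the 7 epithelial markers all read above the median level of all genes. Of the genes above that level only 33.3% were above 0, with a median of -0.05, so most markers below 0 is usual there. Dlx2, a patterning factor, rose by 0.56 (limma adjusted p = 0.0253), 0 fell and 7 of 8 had an unadjusted p under 0.05. Groups did not overlap for 5 of the 8, beside 10.3% of all genes, with mutants lower for Msx1, Prrx1, Hand2 and Twist1 (7.02% of all genes). The genes with mutants lower did not pass, with limma adjusted p from 0.0675 (Msx1) to 0.361 (Twist1). The part of epithelial or mesenchymal marker shifts in the falls of Cxcl14 and Ackr3 was not tested.

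None of the other 7 homeostatic ligands passed. Ccl25, a ligand known from thymus and pharyngeal endoderm, read 7.35, 7.38, 7.63 and 7.60 in controls and 7.69, 7.36, 7.16 and 7.43 in mutants, which overlap (-0.08, adjusted p = 0.819). Cxcl13, the B cell attractant that macrophages can also make, differed between its probe sets. The brighter read 6.81, 6.55, 6.11 and 6.22 in controls and 6.73, 6.86, 7.29 and 6.64 in mutants, a difference of 0.46 (adjusted p = 0.295). On the other, the controls read 6.10, 4.95, 5.55 and 5.95 and the mutants 6.95, 7.37, 6.65 and 6.21. That probe set did not overlap between groups and differed by 1.15, yet missed the threshold over all 34958 probe sets (limma adjusted p = 0.106). Over the mean of both the change was 0.81 (adjusted p = 0.0566). Ccl17, Ccl22, Ccl27a and Ccl28, ligands of skin, mucosa and T cells, ran from -0.01 to 0.18.

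Cxcl5 fell within the ELR CXC ligands, the group that attracts neutrophils through CXCR2. It read 4.35, 4.61, 4.63 and 4.07 in controls and 3.74, 3.76, 3.60 and 3.81 in mutants. The groups did not overlap, and the controls were the more variable (SD 0.26 against 0.0873, n = 4 each). The log2 fold change was -0.69 ± 0.123 (SE), or 1.61-fold lower (limma adjusted p = 0.025). These values are among the lowest on the arrays, so the change rests on a faint signal. Omitting any of controls 1 to 3 or mutants 1 and 4 ended the call for Cxcl5 (limma adjusted p at most 0.0995).

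Cxcl5 lies next to Ppbp and Pf4, the platelet chemokine genes, and both of these neighbours fell (-0.97, adjusted p = 0.0222, and -0.77, adjusted p = 0.0251). Ppbp lost its call in 4 of 18 alternatives and Pf4 in 6 of 18, quantile normalization among them for both (adjusted p at most 0.0919 and 0.101). The next genes in order, Cxcl3, Cxcl15, Cxcl1 and Cxcl2, ran from -0.0038 to 0.19, none past the threshold. Of 8 platelet markers, Ppbp and Pf4 fell and the other 6 missed the threshold; 4 fell without mutant replicate 3. The median was -0.24, with list means of 7.82 to 8.13 in controls and 7.49 to 7.98 in mutants. Of 7 neutrophil and granulocyte markers, 0 passed in limma, 4 had an unadjusted p under 0.05 (13.5% of all genes did) and all 7 were above 0 (median 0.44). Without mutant replicate 3, 6 of the 7 were above 0 and the median was 0.27. Cxcr2, the receptor of these ligands, differed by 0.09 (adjusted p = 0.765). The part of platelet RNA in the Cxcl5 values was not tested.

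The remaining members did not pass. The interferon-inducible ligands Cxcl9, Cxcl10 and Cxcl11, which attract T cells through CXCR3, differed by 0.16, 0.15 and 0.00. The membrane-bound ligand Cxcl16, which can also take up oxidised lipoprotein, read 7.26, 7.13, 7.20 and 7.33 in controls and 7.15, 7.18, 7.98 and 7.26 in mutants. Mutant replicate 3 alone stood high, and without it the difference of 0.17 became -0.03. Cxcl17, a mucosal ligand, differed by 0.30 (adjusted p = 0.434), or 0.14 without mutant replicate 3, and the T cell ligand Xcl1 by -0.08. The CXC receptors, Cxcr4 included, ran from -0.18 to 0.09 with 0 of 5 past the threshold. Of the 53 members 50 read at or below the median of all genes (7.63) and 23 at or below the lower quartile; Ccl3 and Cxcl5 were among the 23 and passed.

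Beyond the members, 45 genes of chemokine receptor signalling and ligand processing were measured, of which 1 rose, 1 fell and 43 did not pass (median -0.02). That is 4.44% past the threshold, beside 2.14% of all genes. Groups did not overlap for 22.2% of the 45, beside 10.3% of all genes, with mutants higher for 2 and lower for 8. In limma 10 had an unadjusted p under 0.05, as did 13.5% of all genes. Rac2, a GTPase of blood cells that drives their migration, rose by 0.37 ± 0.0744 (SE, limma adjusted p = 0.0407). Rgs18, a G protein regulator of platelets and myeloid cells, fell by 0.78 ± 0.131 (SE, limma adjusted p = 0.0195). Rac2 lost its call in 12 of 17 alternatives and Rgs18 in 2 of 17. The inhibitory G protein subunits Gnai1, Gnai2 and Gnai3, a class that couples to these receptors, differed by -0.26, -0.07 and -0.01. The arrestin genes Arrb1 and Arrb2, which end receptor signalling, differed by -0.01 and 0.06.

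**Figure D5:**
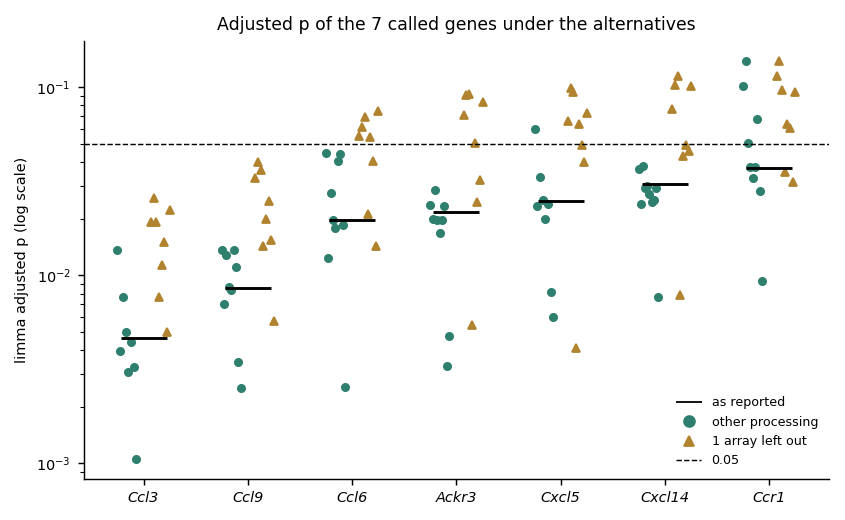
Limma adjusted p (log axis) of the 7 members that passed, as reported (black bar), under other processing (circles) and with 1 array left out (triangles); the dashed line is 0.05. Ccl3 and Ccl9 stay under the line throughout, while the other 5 cross it when particular arrays are left out.

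Leaving out control 1, 2 or 3 or mutant 4 left 2 members past the threshold, Ccl3 and Ccl9, and leaving out mutant 1 left 3. Without those arrays 104 to 198 of all genes passed in place of 390. Without mutant replicate 3 there were 8, the same 7 and Cx3cr1. None of the 7 changed direction under any alternative that measured it.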

How the data were processed

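Total RNA of 8 mandibular arch samples was extracted with a column kit and biotin-labelled for Affymetrix arrays, per the labels. The deposited values are log2 expression per probe set, which the authors made with RMA, per the submitters' processing notes; no version is named there. RMA summaries compress differences of dim probe sets.

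Of 45101 probe sets, 34958 had 1 gene symbol. The brightest per gene gave 18194 genes. The fit used lmFit and eBayes of limma 3.58.1 under R 4.3.3, mutant minus control without covariates, and Benjamini-Hochberg adjustment over all genes. Intervals are the fit's 95% intervals. A gene rose or fell if its adjusted p was under 0.05. Single genes were also tested by exact two-sided permutation. The steps were tested on simulated data.

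Members, role groups, marker and pathway lists were chosen with earlier results of these data known. The rule for naming took members past the threshold or without overlap and the 6 brightest; Cxcr4, Cxcl13, Ccl4 and the other members with printed values outside it were named after their values were seen. Alternatives were the replicate number as a block, other choices of probe set, a minimum level at the lower quartile or the median, quantile normalization or median centring, a variance trend, weights per array, and each array left out in turn. Promoter windows are from RefSeq (GRCm38.p6) and matched 40 of 53 members by symbol. No genome build is named with the array values.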

Additional observations from a re-analysis of the deposited data

Results flagged for a closer look

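In 106 groups of 4 arrays (53 members, 2 groups each), 13 had a highest or lowest array far from the other 3 by Dixon's criterion (the gap to the nearest array as a share of the range), where chance gives about 1 in 20. Of these, 6 were the highest value of mutant replicate 3: Cxcl16 at 7.98 (next 7.26), Ccl4 at 7.53 (lowest mutant 6.97), Ccl24 at 7.26 (6.79), Ccl20 at 6.37 (5.89), Ccr4 at 5.98 (5.36) and Cxcl9 at 4.82 (4.27). Another 6 concerned control replicate 2. It was highest for Ackr1 at 7.40 (next 7.06), Ccl1 at 5.66 (5.45) and Xcr1 at 4.82 (4.59). It was lowest for Ccl6 at 5.56 (5.81), Ccl22 at 5.48 (5.74) and Cxcr2 at 4.42 (4.58). The last was Ackr3 in control replicate 4, at 11.48 below 11.83. Of the 13, Ackr3 and Ccl6 had passed the test of mutant against control.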

How the results depend on the processing

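Of 7 members past the threshold, Ccl3 and Ccl9 kept the call in every alternative that measured them, and all 7 kept their direction. The number past the threshold was 7 as reported, 2 to 8 with 1 array left out and 2 over genes above the median level, where 3 members remained. Over all genes it was 390 as reported, 620 after quantile normalization, 1356 with array weights and 104 to 618 with 1 array left out. With the replicate block 5 members passed (Ccr1 and Cxcl5 were lost) and 293 genes. Deviations of same-numbered arrays correlated at 0.03, 0.00, -0.12 and 0.41, so the numbers are not taken to pair the samples. Over all 53 members, 18 changed sign without mutant replicate 3 and 18 with array weights, 16 of them in both, and none of these had passed. Among the members with values on every array these were Ccl25 without mutant replicate 3 (0.0044; -0.17 to 0.0044 with 1 array left out) and Cxcl16 with array weights (-0.0096) and without mutant replicate 3 (-0.031; -0.031 to 0.25 with 1 array left out). Where no other cause is named, the cause was not tested. The number of arrays, 4 a group, limits the precision.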
